A study of Mus musculus with 8 samples.

Results

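The 30 genes described here encode nuclear receptors outside the Ppar, Rxr, thyroid hormone receptor, estrogen-related receptor, Nr1d and Nr4a families. They were taken by name from 21000 mouse genes with a curated RefSeq mRNA, and all 30 were found. The list holds the retinoic acid receptors Rara, Rarb and Rarg, the ROR genes Rora and Rorb, the oxysterol receptors Nr1h2 and Nr1h3, the bile acid and sterol receptors Nr1h4 and Nr1h5, Vdr, the xenobiotic receptors Nr1i2 and Nr1i3, and the HNF4 genes Hnf4a and Hnf4g. It goes on with the testicular receptors Nr2c1 and Nr2c2, Nr2e1 and Nr2e3, the COUP-TF genes Nr2f1, Nr2f2 and Nr2f6, the steroid receptors Esr1, Esr2, Nr3c1, Nr3c2 and Pgr, then Nr5a1, Nr5a2, Nr6a1 and Nr0b2.

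Open chromatin was measured by ATAC-seq, in which a transposase cuts accessible DNA, in nuclei of brown adipose tissue (BAT) from 2 WT mice (Dot1l f/f) and 2 Dot1L-BKO mice (Dot1l f/f carrying Ucp1-Cre). All were 12 weeks old, ate chow and spent 4 h at 4°C. The Ucp1 promoter drives Cre only in Ucp1-expressing cells, so other cells of the depot keep Dot1l, and in whole tissue fewer cells of a type and less open chromatin per cell cannot be told apart. The values are 1 list of 32173 peak summits, whose label sets the WT libraries against the Dot1L-BKO libraries, with no value per library, so the genotypes could not be compared, the loss of Dot1l could not be checked, there was no replicate error, and the depth behind each peak was unknown. The sources used here do not say whether one genotype served as the control for peak calling. If it did, a summit marks signal above that control and not open chromatin in all 4 libraries, and a gene without a summit could be open in both genotypes. The counts and scores below are therefore those of summits in this list, and these readings cannot be told apart from it.

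Nuclear receptors are transcription factors that mostly bind DNA as dimers at repeats of a short half-site, and many change coregulators when a lipid-soluble ligand such as a steroid, retinoid, oxysterol or bile acid binds. In brown fat they link hormones and lipid metabolites to transcription. Their own genes are regulated by tissue, so that some are transcribed widely and others mainly in liver, gonad, retina or brain.

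Each summit carries a score, the −log10 of its q-value. A high score stands for a small q-value, and it grows with depth and with enrichment over whatever control was used, so it is not a level of expression. A summit within 1 kb of a transcription start site (TSS) was counted as a promoter summit, 12 of the 30 receptor genes had one (40%), and over all genes the share was 45.2%. Their best promoter scores ran from 5.07 at Rora to 44.6 at Nr2c2 with a median of 10.5, beside a median of 10.7 over all genes with a promoter summit, and 6 of the 12 were above that all-gene median. At a score of 10 or more the share was 20% of the receptor genes and 23.5% of all genes. The order turned at a score of 5 or more, with 40% beside 36.1%, and with a promoter of 1 kb upstream to 100 bp downstream, with 36.7% beside 35.2%. The closest gene inside the 1 kb limit was Nr3c1, with its summit 754 bp from a TSS, and the closest outside was Nr2f2 at 1173 bp.

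**Figure D1:**
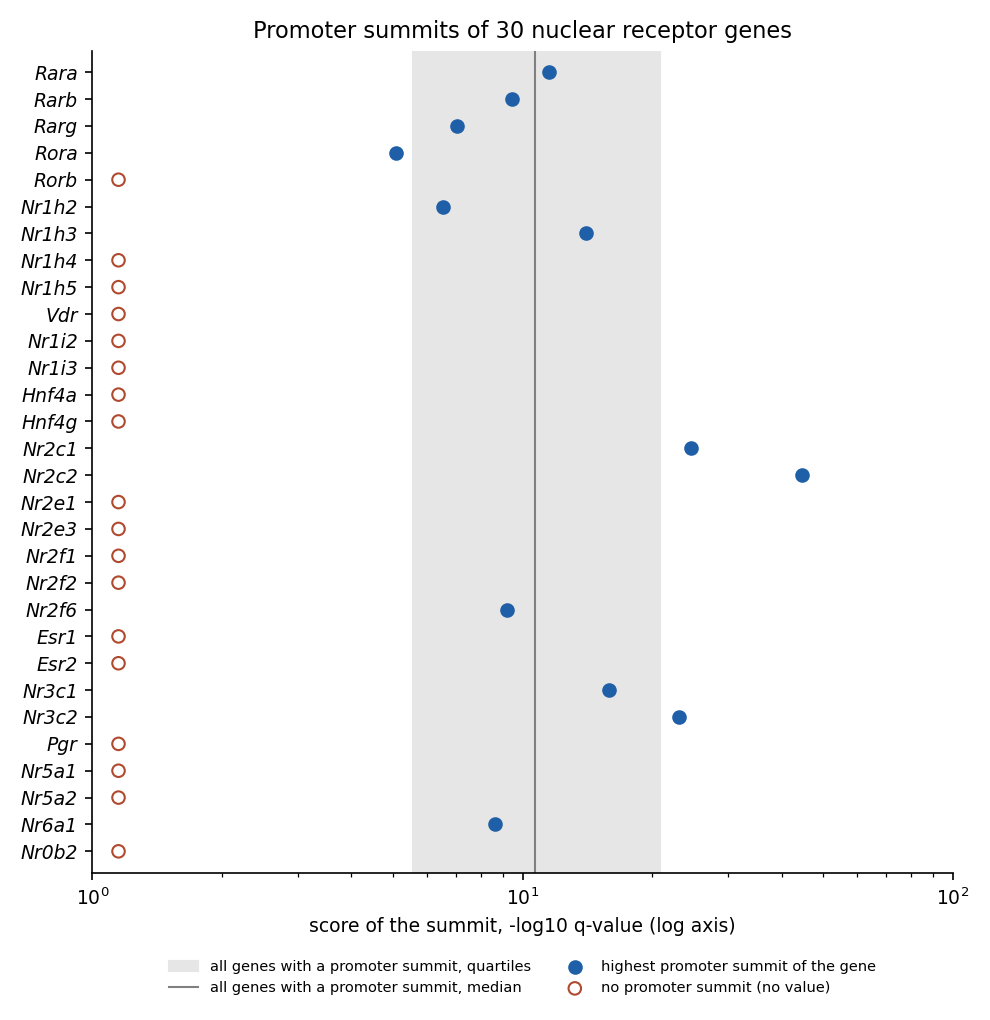
Highest promoter summit score (−log10 q, log axis) of each of the 30 receptor genes in the 1 summit list, with open circles for genes without a promoter summit and the grey line and band for the median and quartiles of all genes with one. The 12 genes with a promoter summit spread from 5.07 to 44.6 around the all-gene median of 10.7, and the other 18 have no value.

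The 5 promoter windows here show the letters under the best promoter summit of Rora and Nr2c2, the genes where that best score was lowest and highest, of Rarb and Rarg, and of the steroid receptor gene Nr3c2. The Rara window lies outside the exons of Rara but within an exon of Gm46294, a predicted gene on the other strand, and is not printed. Each runs 50 bp to either side of the summit, 5′ to 3′ on the strand of the gene, read from the RefSeq mouse genome GRCm38.p6, the same build as mm10. Capitals mark a half-site in a relaxed spelling (AGGTCA or AGTTCA or GGGTCA or GGTTCA), the GC box GGGCGG, the CCAAT box, and TGACG, the core of a cAMP response element, on either strand.
Rarb chr14:16575482-16575582, minus strand: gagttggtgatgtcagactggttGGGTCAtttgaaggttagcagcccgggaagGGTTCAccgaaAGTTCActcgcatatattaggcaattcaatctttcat
Rarg chr15:102247390-102247490, minus strand: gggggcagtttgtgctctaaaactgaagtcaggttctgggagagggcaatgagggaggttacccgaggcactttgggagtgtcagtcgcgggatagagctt
Rora chr9:69289681-69289781, plus strand: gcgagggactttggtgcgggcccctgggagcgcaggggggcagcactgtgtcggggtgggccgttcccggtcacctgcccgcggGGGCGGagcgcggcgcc
Nr2c2 chr6:92092244-92092344, plus strand: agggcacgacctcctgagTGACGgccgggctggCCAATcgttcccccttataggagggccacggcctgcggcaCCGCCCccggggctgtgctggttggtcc
Nr3c2 chr8:76902068-76902168, plus strand: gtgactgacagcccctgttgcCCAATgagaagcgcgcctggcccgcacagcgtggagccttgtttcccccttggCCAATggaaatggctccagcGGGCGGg

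The Rarb window held 3 relaxed half-sites and none of the other motifs. Its last pair, GGTTCA and AGTTCA, lay in the same direction 5 bp apart and ran from 53 to 37 bp upstream of the TSS, 3 bp from the summit. Such a direct repeat is the textbook form of the retinoic acid response element, and the Rarb promoter is a classic example of a gene that responds to its own ligand. Counting 100 bp on either side of each summit, the relaxed repeat with a 5 bp gap was found at 1 of the 67 summits at these genes (those at a promoter, in a gene body or nearest to the gene), at 0.134% of all 32173 summits and at 0.0578% of the 10375 promoter summits of all genes. The relaxed spelling was chosen after the Rarb window had been read, so the match is a description of these letters. The stricter half-site AGGTCA was at 10 of the 67 summits (14.9%) and at 15.2% of all summits, and the relaxed one at 25 (37.3%) and 35.4%. No repeat of AGGTCA with a gap of 1 to 5 bp lay under any of the 67.

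The promoter windows of the other 4 printed genes differed in their marked letters. Nr2c2 held all 3 of the non-receptor motifs, namely TGACG followed by CCAAT followed by the GC box. Nr3c2 held 2 CCAAT boxes and a GC box, Rora held a GC box, and Rarg held none of the 4 motifs. The receptor genes had 24 promoter summits, 8 of them at Rara alone. Again with 100 bp to either side, a GC box was found at 14 (58.3%), a CCAAT at 5 (20.8%) and a TGACG at 6 (25%). The shares over the promoter summits of all genes were 45.0%, 27.8% and 23.1%.

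The retinoic acid receptors had the most body summits of any role, 30 in all. Rara, Rarb and Rarg bind all-trans retinoic acid as partners of the retinoid X receptors, and all 3 had a promoter summit. Rara, on chromosome 11, had a best promoter score of 11.5 at 146 bp upstream of its first TSS. A summit lay within 1 kb of each of its 5 TSSs. At a score of 5 or more this held for 3 TSSs, and at 10 or more for 2, which shared the summit of 11.5. The 37.2 kb body of Rara held 18 summits, which is 48.3 per 100 kb. Within 50 kb of a TSS lay 24, of which 22 were nearer to Rara than to any other gene. The body summits scored from 1.42 to 13.4 with a median of 4.45, with 8 at 5 or more and 1 at 10 or more, and the highest, 13.4, was in an intron 8961 bp from the nearest Rara TSS. Of 6668 genes between 0.5 and 2 times its length, 99.9% had fewer body summits.

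Rarg, on chromosome 15, had 10 summits in its 22.6 kb body, or 44.3 per 100 kb, of which 7 were nearest to Rarg itself, and 99.3% of the 7521 genes of like length had fewer. These 10 scored from 1.54 to 7.05, with 3 at 5 or more and 0 at 10 or more. Its 3 promoter summits scored 7.05, 6.53 and 5.55 around an internal TSS, while the TSS farther upstream had its nearest summit, of score 2.53, at 1122 bp. Rarb, on chromosome 14, had 2 summits in a body of 651 kb. The one at the promoter shown above scored 9.47 at 56 bp upstream, the other scored 2.15 in an intron 91681 bp away, and the nearest summit to the distal TSS lay 332176 bp away. The median score over all 32173 summits was 5.0. Rara and Rarg were therefore dense in summits, and Rarb had a promoter summit in a long body with little else.

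**Figure D2:**
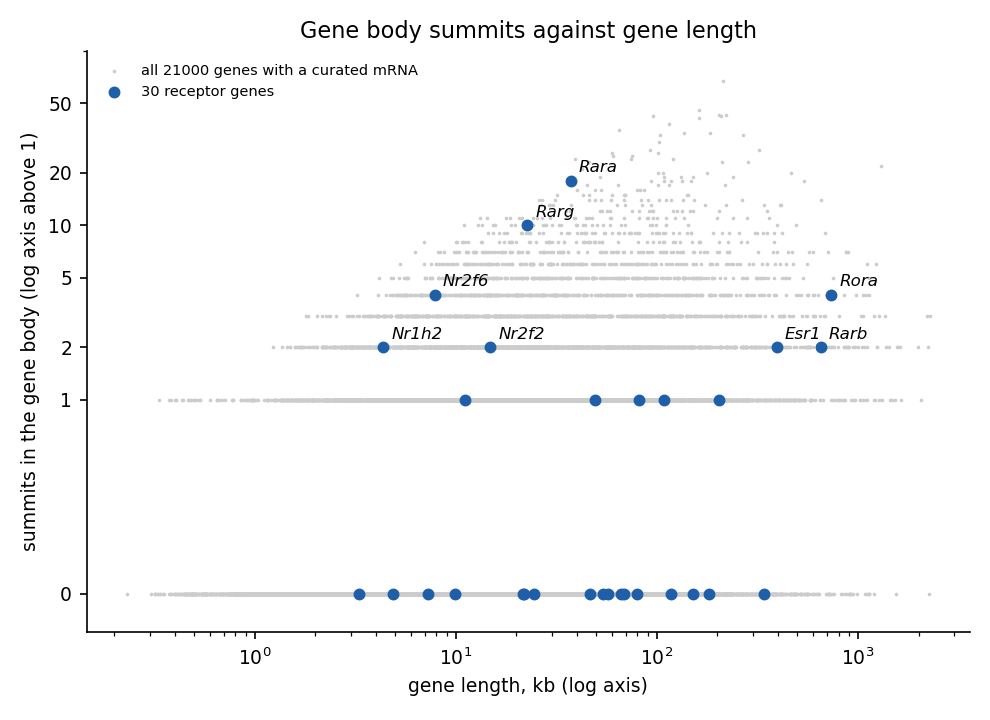
Number of summits in the gene body against gene length in kb (log axis), with the 30 receptor genes as blue points, named where they have 2 or more summits, over all 21000 genes in grey. Rara with 18 summits and Rarg with 10 have more than 99.9% and 99.3% of genes of like length, and the other receptor genes lie at 0 to 4.

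The ROR genes encode receptors that bind DNA as monomers and act in circadian and metabolic control. Rora, on chromosome 9, had 4 summits in 734 kb, and the promoter summit, 110 bp upstream of an internal TSS, scored 5.07, the lowest of the 12 genes. Its first TSS lay 287491 bp from the nearest summit. The highest Rora summit, at 8.12, was 59761 bp upstream of the internal TSS. Rorb, on chromosome 19 and known from retina and brain, had its nearest summit 288114 bp from a TSS.

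Among sterol and bile acid receptors the promoter summits were at the oxysterol receptors alone. Nr1h3, which encodes the LXR form prominent in liver, fat and macrophages, had a promoter summit of 14.0 at 37 bp upstream, near both of its TSSs. Nr1h2, the broadly expressed LXR form, had one of 6.53 in the 5′ UTR at 74 bp downstream, and another summit of 7.05 in an intron at 1285 bp. Nr1h4, the bile acid receptor FXR, had its nearest summit 62587 bp away, and Nr1h5 had 1 summit of 15.4 at 31571 bp that was nearest to Sike1.

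None of the vitamin D, xenobiotic and HNF4 receptor genes, 5 in all, had a promoter summit. Vdr, the vitamin D receptor, had 1 summit of 10.9 at 6111 bp upstream that was nearest to Vdr itself. Nr1i2, the xenobiotic receptor PXR, had its nearest summit at 52395 bp. Nr1i3, the receptor CAR, had 7 within 50 kb, none of them nearest to it, and the highest, 47.3, was nearest to Tomm40l. Hnf4a, a regulator of hepatocyte genes, had 3 within 50 kb and none nearest to it, and the nearest to its relative Hnf4g was at 475728 bp. The counts within 50 kb of Nr1i3 and Hnf4a were thus of summits nearest to other genes.

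The 2 testicular receptors, which are orphan receptors that bind direct repeats and are widely expressed, had the highest promoter scores of the 30 genes. Nr2c2, on chromosome 6, had a summit of 44.6 at 139 bp upstream of a TSS, the one printed above, and 93.1% of genes with a promoter summit scored lower. Nr2c1, on chromosome 10, had one of 24.6 in its first intron, 228 bp downstream of the TSS, and 80.1% of genes scored lower. This summit is no promoter summit where the promoter ends 100 bp downstream. Each had 1 summit in its body, in 81.6 kb for Nr2c2 and in 49.3 kb for Nr2c1.

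Nr2e1, a regulator of neural stem cells, and Nr2e3, a photoreceptor gene, had their nearest summits at 81568 and 198769 bp. The COUP-TF genes, whose products often repress transcription, differed among themselves. Nr2f6, on chromosome 8, had promoter summits of 9.21 in the 5′ UTR and 6.02 upstream. Its body of 7.83 kb held 4 summits, and 95.3% of 6178 genes of like length had fewer. These 4 scored from 3.32 to 9.21, with 1 at 5 or more and 0 at 10 or more. The one of 4.46 was nearest to Ocel1. Nr2f2, on chromosome 7, had no promoter summit (it gained one with all annotated mRNAs or a 5 kb window) but had 2 intronic summits, of 7.58 and 2.92, in its body. Nr2f1, on chromosome 13, had its nearest summit at 275407 bp.

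Many of the summits around Nr2f6 lay nearer to other genes. Of its 15 summits within 50 kb, 7 were nearest to Nr2f6 and scored from 1.84 to 9.21. The highest of the 15, at 52.8, was nearest to Ocel1 and was the highest score near any of the 30 genes.

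Of the 5 steroid receptors, the corticosteroid receptors had promoter summits and the sex steroid receptors had none. Nr3c2, the mineralocorticoid receptor, had one of 23.1 at 212 bp upstream, with further summits of 3.32 and 11.5 at 1514 and 2690 bp upstream, and none in its 343 kb body. Nr3c1, the glucocorticoid receptor, had 1 summit, of 15.9, in an intron 754 bp upstream of an internal TSS, so that 2 of its 5 TSSs had a summit within 1 kb and none had one within 500 bp. Esr1, the estrogen receptor alpha gene, had 2 intronic summits of 4.54 and 2.92, at 127412 and 201804 bp from the nearest Esr1 TSS, and the second was nearer to Syne1. Esr2 and Pgr, which encode estrogen receptor beta and the progesterone receptor, had their nearest summits at 77955 and 116482 bp.

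Nr5a1, a regulator of steroid-producing tissues, and Nr5a2, which acts in liver and pancreas, had their nearest summits at 59333 and 195607 bp. Nr6a1, a germ cell receptor, had promoter summits of 8.65 at 612 bp upstream and 5.07 at 115 bp downstream of its upstream TSS, and the nearest summit to its other TSS was at 131614 bp. Nr0b2, an atypical receptor without a DNA-binding domain that represses others in liver, had 10 summits within 50 kb. None of the 10 was nearest to Nr0b2, and the closest was 7357 bp away.

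Read over all 30 genes, 52 TSSs were annotated and 19 had a summit within 1 kb (36.5%), beside 43.4% of the TSSs of all genes. A summit within reach of several TSSs counted for each, as at Rara, Nr1h3, Nr2c2 and Nr3c1. Of the 16 genes with several TSSs, 3 had a summit at each (Rara, Nr1h3 and Nr2c2), 5 at some (Rarb, Rarg, Rora, Nr3c1 and Nr6a1) and 8 at none. In Rarb, Rarg and Rora the TSS with the summit was internal, and in Nr6a1 it was the upstream one. For the 18 genes without one, the median distance from a TSS to the nearest summit was 70271 bp.

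Near and within the genes, 18 of 30 (60.0%) had a summit within 50 kb of a TSS, beside 70.9% of all genes, and 14 (46.7%) had one that was nearest to themselves, beside 53.4%. A summit in the gene body was found in 13 (43.3%), beside 39.7% of all genes, and the order turned at a score of 10 or more, with 4 (13.3%) beside 13.7%. Of the 49 body summits, 28 were in Rara and Rarg, and the other 28 genes together had 0.597 per 100 kb. Over all 30 genes the density was 1.37 per 100 kb, and over all genes 1.90, while the receptor genes were longer, with a median of 51.6 kb beside 16.7 kb. In 11 genes (Rorb, Nr1h4, Nr1i2, Hnf4g, Nr2e1, Nr2e3, Nr2f1, Esr2, Pgr, Nr5a1 and Nr5a2) no summit lay in the body or within 50 kb, which is 36.7% of the 30 beside 27.5% of all genes.

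**Figure D3:**
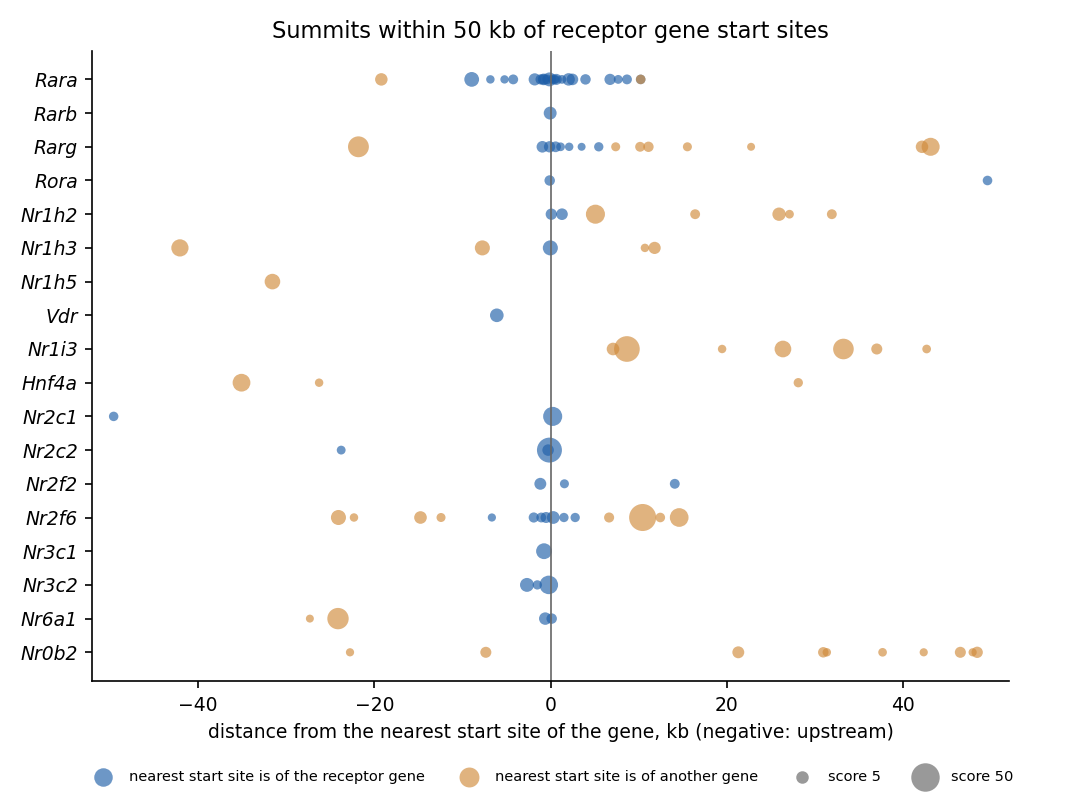
Position of each summit within 50 kb of a TSS of each receptor gene, in kb from its nearest TSS (negative is upstream), with point area growing with score and colour showing whether the receptor gene (blue) or another gene (orange) had the nearest TSS. The 107 summits comprise 57 nearest to the receptor gene and 50 nearest to another gene.

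How many genes lay nearby moved with these counts. Of the 19 receptor genes with no other gene's TSS within 50 kb, 8 had a summit there (42.1%), beside 53.1% of all such genes, and of the 11 with a neighbour, 10 did (90.9%), beside 77.8%. The part of the neighbours in the counts was not tested beyond this split and the nearest-gene counts above.

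CpG content was also read, since CpG-rich promoters are often open in many tissues. The ratio of observed to expected CpG was read in the 1 kb centred on each TSS. Each gene got the highest ratio over its TSSs, which need not be at the TSS with the summit. The number of TSSs per gene was not adjusted for. The median was 0.77 in the 12 receptor genes with a promoter summit and 0.46 in the 18 without. Over all genes the medians were 0.76 and 0.31. Of the 18 receptor genes with a ratio of 0.5 or more, 11 had a promoter summit (61.1%), beside 69.2% of all such genes. Of the 12 below 0.5, only Nr1h3 had one (8.33%), beside 10.4%. The 7 with a high ratio and no promoter summit were Nr5a1 (0.88), Nr2f1 (0.86), Nr2f2 (0.77), Nr2e1 (0.70), Vdr (0.68), Rorb (0.62) and Esr2 (0.56).

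**Figure D4:**
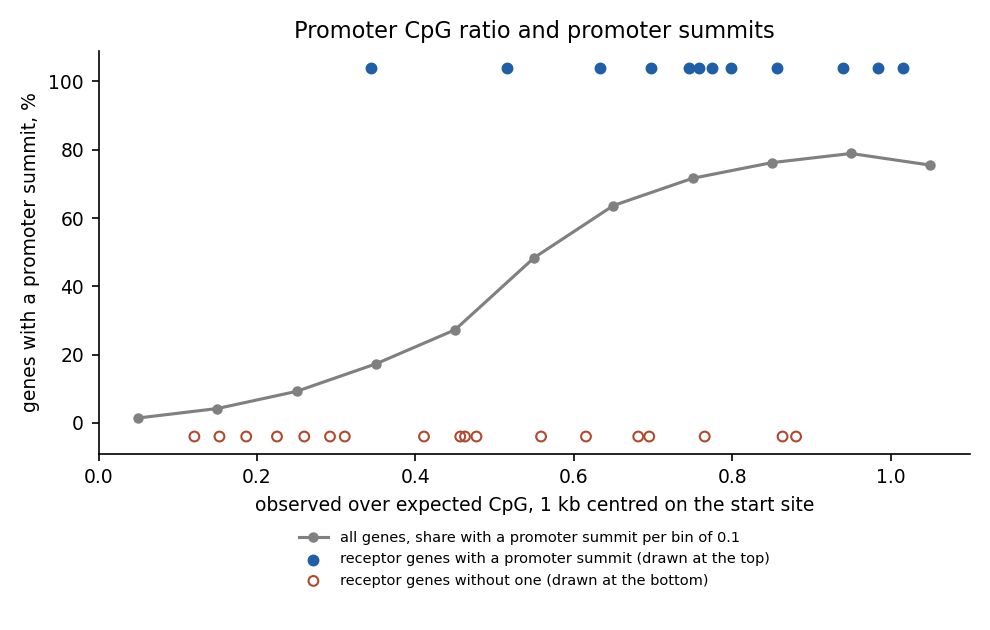
Percent of all genes with a promoter summit (grey line) by bins of observed over expected CpG in the 1 kb around the TSS, the highest over the TSSs of a gene. Each receptor gene is drawn at its own ratio, at the top if it has a promoter summit and at the bottom if not. The 12 receptor genes at the top have a median ratio of 0.77 and the 18 at the bottom 0.46.

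Other genes of nuclear receptor signalling were read as named lists, counting genes with a promoter summit. The Ppar, Rxr, thyroid hormone, estrogen-related, Nr1d and Nr4a receptor genes had one in 12 of 16 (75%), led by Nr4a3 at 66.7, Nr1d2 at 65.8 and Esrra at 59.5. Coregulators, which receptors recruit to open or close chromatin, had one in 15 of 20 (75%), led by Carm1 at 84.1 and Prmt1 at 60.5. Genes that supply or remove ligands had one in 8 of 25 (32.0%), led by Hsd17b12 at 54.4 and Srd5a1 at 53.5, and known targets in 13 of 24 (54.2%), led by Dusp1 and Arntl at 37.6. At a score of 10 or more the order of the lists was another, with coregulators at 5 of 20 (25%), ligand genes at 5 of 25 (20%), targets at 7 of 24 (29.2%) and the other receptor families at 10 of 16 (62.5%), beside 20% of the 30 receptor genes and 23.5% of all genes. The lists share genes, since the targets hold the receptor genes Nr1h3 and Rarb, the ligand genes Dhrs3, Cyp24a1 and Cyp26a1, and Nr1d1 of the other families. Differences between lists were not tested.

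**Figure D5:**
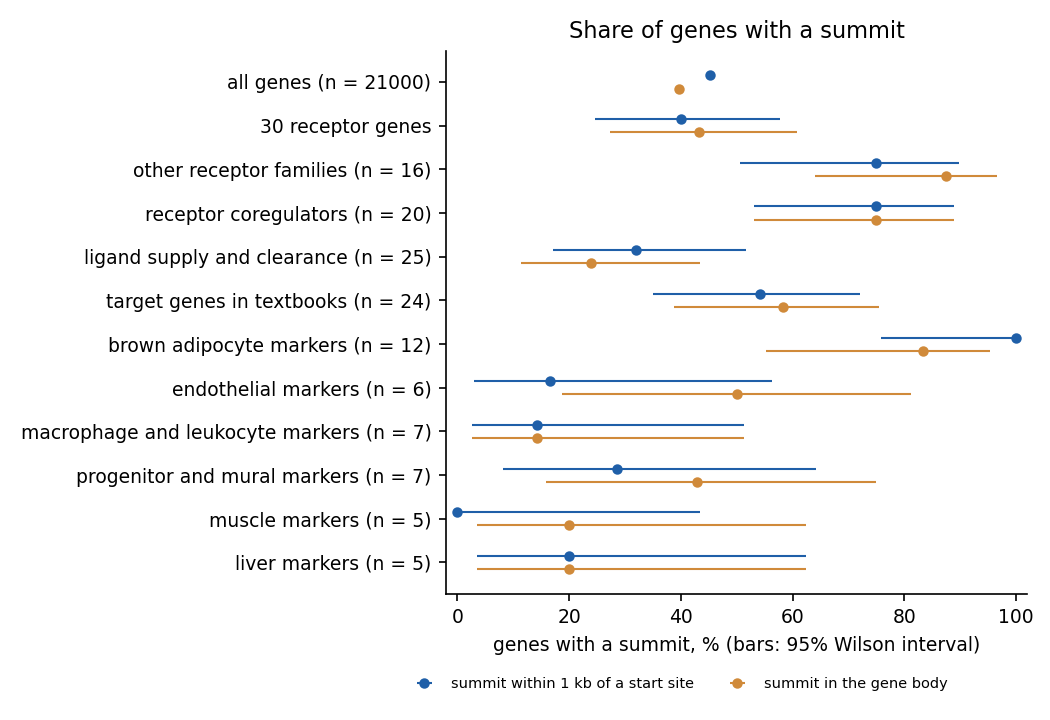
Percent of genes with a promoter summit (blue) or a gene body summit (orange) in all genes, the 30 receptor genes, the other lists and cell type markers, with 95% Wilson intervals over the genes of a list, which are not replicates. For promoters, the receptor genes are at 40%, the coregulators and the other receptor families at 75%, and all genes at 45.2%.

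The tissue label was read in the same list. All 12 brown adipocyte markers had a promoter summit, beside 45.2% of all genes. Cidea was at 61.5 and Ucp1 at 33.7. Elovl3 at 9.78, Prdm16 at 8.65 and Dio2, Cox8b and Adipoq at 6.02 fell below a score of 10. Pparg, Fabp4 and Adipoq, used by the authors as adipogenic marks, are in this list too, so it is not of brown genes alone. Of the 12, Pparg and Ppargc1a are also in the lists of other receptor families and coregulators. Of the other markers, 1 of 6 endothelial, 1 of 7 leukocyte and 2 of 7 progenitor and mural genes had a promoter summit. Among muscle genes 0 of 5 and among liver genes 1 of 5 had one. A gene body summit was at 10 of the 12 brown adipocyte, 3 of 6 endothelial, 1 of 7 leukocyte and 3 of 7 progenitor and mural genes. It was at 1 of 5 muscle and 1 of 5 liver genes, beside 39.7% of all genes.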

How the data were processed

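ATAC-seq libraries of BAT nuclei came from 2 WT and 2 Dot1L-BKO mice. Per the submitters' processing notes the authors used bcl2fastq 2.2, cutadapt 1.2.1, BWA and MACS2 2.1.1 with a q cutoff of 0.05 and a fold enrichment of 2.0 on mm10, and deposited 1 summit list, whose score is the −log10 q-value. The list is labelled as WT versus Dot1L-BKO, and which genotype, if any, MACS2 took as control is not given in the sources used here. The authors' published methods describe peaks found in each sample and joined into a union set, and name no control. Whether the deposited list is that set is not stated. RNA-seq libraries of the series were not analysed here.

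Using samtools 1.23.1, pysam 0.24.0, pandas 2.3.3, numpy 2.4.6 and scipy 1.17.1 under Python 3.11.15 (plots with matplotlib 3.10.9), summits were assigned to TSSs of curated RefSeq mRNAs on GRCm38.p6. A promoter summit lay within 1 kb of a TSS, and the 50 kb and gene body counts were made in the same way. A summit counted for every gene within reach, and whether that gene had the nearest TSS was counted apart. Bmal1 was matched as Arntl through synonyms and Sts was not matched. No test was run, because the list holds no values per library. The steps were tested on simulated data. The named genes were the 30 receptors, and in other lists the genes with the highest promoter scores. The members and the lists were chosen with earlier results of these data known. Alternatives were a score of 5 or 10, 500 bp, 5 kb or 1 kb upstream with 100 bp downstream as the promoter, summits within 500 bp merged, 25 kb in place of 50 kb, all annotated mRNAs, the nearest TSS alone, promoter summits left out, and Rara and Rarg left out.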

Additional observations from a re-analysis of the deposited data

How the results depend on the processing

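No paired analysis was possible because each summit has 1 score and nothing for a single mouse, and for the same reason no replicate could be left out. Under a score of 5 or more, summits within 50 kb fell to 55 and body summits to 23. Under a score of 10 or more, genes with a promoter summit numbered 6, genes with a body summit 4 (13.3%, below the 13.7% of all genes), summits within 50 kb 24, body summits 4, TSSs with a summit 10, coregulators 5, ligand genes 5 and targets 7. With all annotated mRNAs, 47 TSSs had a summit, with the nearest TSS alone 57 summits stayed within 50 kb, without promoter summits 31 body summits stayed, and without Rara and Rarg 21. The share of receptor genes with a promoter summit was above that of all genes with a score of 5 or more (40% and 36.1%) and with 1 kb upstream and 100 bp downstream, and below it under the other promoter settings and the summits merged within 500 bp. Nr1h2, Nr2f6, Nr6a1, Rarb, Rarg and Rora had no promoter summit of 10 or more. Nr3c1 lost its promoter summit at 500 bp and Nr2c1 with 100 bp downstream, Nr2f2 gained one with all annotated mRNAs or 5 kb, and those of Rara fell from 8 to 3 at a score of 5 or more and to 1 at 10 or more. Depth was unknown, so a gene without a summit cannot be told apart from one below the limit of detection.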
